A study of Mus musculus with 18 samples.

Results

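Expression of 42 genes for chemokines, inflammatory cytokines and a few of their receptors and targets was followed in intestinal tumours and intestinal epithelial cells of mice with and without the transcription factor Stat3. The genes were a fixed list of symbols. Each gene took its brightest probe set, by the average of the 18 arrays, among those that name 1 gene. Of the 42, 41 were represented. Il22 was skipped, because its probe sets also name Iltifb, a near-identical copy. Of the 41, 40 passed the filter on dim genes and were tested among 17316 genes of the whole series, and Il10 was too dim. The 6 groups held 3 arrays each, with 1 sample per array. They were Stat3-deleted male tumours (replicates 10 to 12), control male tumours (7 to 9), Stat3-deleted female tumours (16 to 18), control female tumours (13 to 15), Stat3-deleted epithelial cells (4 to 6) and control epithelial cells (1 to 3). Control mice, Stat3fl/fl, carried floxed Stat3 alleles, and Stat3-deleted mice, titled Stat3-/-, also carried a Cre recombinase under the Villin promoter, which is active in the intestinal epithelium. Immune and stromal cells of the deleted mice therefore keep Stat3 by design. Per the series text the tumours arose in APCmin/+ mice, in which a mutant Apc allele activates WNT signalling. The labels of all 18 samples, the epithelial cells among them, name a carcinogen and an irritant (azoxymethane/dextran sulfate) and a colorectal tumour. The inducing agent and the gut segment are therefore not settled. No age is given, and for the epithelial cells neither sex nor Apc genotype. The labels do not say that samples came from separate mice, so p-values rest on a spread between arrays that may be only technical.

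Chemokines are small secreted proteins that direct leukocytes along concentration gradients through G protein-coupled receptors. CXC chemokines with an ELR motif, such as Cxcl1, Cxcl2 and Cxcl5 of the mouse, act on Cxcr2 of neutrophils, those induced by interferon gamma (Cxcl9, Cxcl10 and Cxcl11) act on Cxcr3 of T and NK cells, and CC chemokines such as Ccl2 draw monocytes. IL-1 and TNF activate NF-kB, which switches on many chemokine genes, whereas cytokines of the IL-6 family signal through Il6st (gp130) to Stat3. In the gut, epithelial cells make Ccl25, Ccl28, Il18 and Cx3cl1, while most inflammatory members are known from myeloid cells, fibroblasts and injured epithelium.

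Stat3 itself checked the labels. Its log2 value, the scale of all levels here, was 7.74, 8.17 and 8.17 in Stat3-deleted and 10.08, 10.15 and 10.11 in control male tumours, and 8.07, 8.33 and 8.46 in Stat3-deleted and 10.08, 10.03 and 10.35 in control female tumours. In the epithelial arrays it was 7.93, 7.95 and 7.73 in Stat3-deleted and 9.83, 9.74 and 9.91 in control epithelial cells. Every Stat3-deleted array lay below every control array. Epithelial markers were high everywhere, with a mean over 10 genes of 10.78 to 11.60 (log2) in tumours and 11.18 to 11.43 in epithelial cells. Control tumour replicates 9 and 15 stand apart. The posterior gut gene Hoxd13 was 8.25 and 9.10 in them, and Gata4, a transcription factor of the upper small intestine, was 6.92 and 6.84, with all other tumours below 6 for Hoxd13 and above 8 for Gata4. Results in control tumours are therefore also given without this pair for some members, and the sizes of other differences may change without it too. Epithelial replicate 4 had the highest mean of 19 T and NK cell markers, 7.80 against 6.19 to 6.83 in the other 5 epithelial arrays.

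The promoters shown here belong to chemokine and cytokine genes and to Icam1, all measured together below and all holding a match. The sequences are given because NF-kB, interferon and STAT factors act on genes of this kind. They are RefSeq sequences of GRCm38.p6, read 5′ to 3′ up to the base before the annotated start. Capitals mark matches, on either strand, to a kB-like motif, an interferon-response-like motif or a STAT-like motif (TTCNNNGAA).
Cxcl1, chr5:90891125-90891244, plus strand: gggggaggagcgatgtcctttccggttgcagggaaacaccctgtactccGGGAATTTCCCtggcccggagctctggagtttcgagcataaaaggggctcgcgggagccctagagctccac
Cxcl2, chr5:90903779-90903898, plus strand: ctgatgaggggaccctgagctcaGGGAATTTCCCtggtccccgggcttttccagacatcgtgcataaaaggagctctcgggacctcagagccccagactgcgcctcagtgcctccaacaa
Cxcl3, chr5:90785981-90786100, plus strand: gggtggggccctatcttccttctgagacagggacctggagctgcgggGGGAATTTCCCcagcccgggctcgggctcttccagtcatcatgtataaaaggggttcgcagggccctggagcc
Il6, chr5:30012994-30013113, plus strand: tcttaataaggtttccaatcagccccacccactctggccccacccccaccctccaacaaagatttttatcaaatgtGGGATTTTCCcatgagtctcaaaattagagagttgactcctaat
Cxcl10, chr5:92348890-92349139, minus strand: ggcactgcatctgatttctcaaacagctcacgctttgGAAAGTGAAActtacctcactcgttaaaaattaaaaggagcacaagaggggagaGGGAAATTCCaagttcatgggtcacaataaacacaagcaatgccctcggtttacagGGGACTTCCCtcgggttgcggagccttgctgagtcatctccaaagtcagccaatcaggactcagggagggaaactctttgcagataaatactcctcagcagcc
Icam1, chr9:21015820-21015939, plus strand: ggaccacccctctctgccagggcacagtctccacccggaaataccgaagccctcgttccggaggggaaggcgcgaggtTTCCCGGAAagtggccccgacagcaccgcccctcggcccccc
In Cxcl1, Cxcl2 and Cxcl3, which lie close to each other in the annotation, the capitals hold 2 overlapping kB-like matches, 1 per strand, whose first bases lie 71, 97 and 73 bases before the start. Il6 held 1 kB-like match 44 bases before the start. Cxcl10 held an interferon-response-like match at 213 and kB-like matches at 159 and 103 bases before the start. The match in Icam1 is STAT-like, 42 bases before the start. Of the 33 listed genes with a promoter in the table (Il22 among them), 6 held a kB-like match within the 250 bases before the start, the last being Csf1, 18.2% of them, whereas 3.8% of all 27025 genes in the table and 3.33% of its 32851 promoters did. The matches in Cxcl1, Cxcl2 and Cxcl3 have the same letters in genes that lie close together, so they may not count as independent. A STAT-like match was found in 4 listed genes (12.1%, against 8.13% of all genes in the table). An interferon-response-like one was found in 2 (6.06%, against 3.46%). Csf1, Tnfrsf1a, Ccl17 and Cxcl14 also held a match, and their promoters are not shown. A match is a run of letters and was not tested for binding.

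Tumours had higher values than epithelial cells for the IL-1 genes Il1a, Il1b and Il1rn, the neutrophil attractants Cxcl2 and Cxcl5, the interferon-induced Cxcl9 and Cxcl10, and Cxcl14, Cxcl16, Ccl11, Il6, Il11, Il33, Csf1 and Icam1. These 15 rose in Stat3-deleted and in control mice alike. The epithelial chemokine Cx3cl1, the TNF receptor Tnfrsf1a, Cxcl11 and Il17a were lower in both. In Stat3-deleted mice 17 of the 40 tested members rose and 6 fell in tumours, against 30.3% and 36.2% of all tested genes (limma, Benjamini-Hochberg adjusted p under 0.05). In control mice 19 rose and 7 fell, against 30.4% and 35.3%. As shares, 42.5% of members rose in Stat3-deleted and 47.5% in control mice. The median difference of the members was 0.63 in Stat3-deleted and 0.71 in control mice, and that of all tested genes -0.07 and -0.08, all on the log2 scale as tumours minus epithelial cells. The comparison sets tumours of both sexes against epithelial cells whose sex the labels do not give. In 17 members of Stat3-deleted mice every tumour lay above every epithelial array and in 4 below, where 27.1% and 28.8% of all tested genes did so. In control mice it was 15 and 6, against 24.8% and 26.3%. With male tumours only, 15 members rose in Stat3-deleted and 10 in control mice, where 24.5% and 25.9% of all tested genes rose, so that the control count is at the background share. Il1a, Il6 and Ccl8 were above the 25th percentile of no epithelial array and entered the tests only through tumours. Among the other 37 members, 15 rose and 6 fell in Stat3-deleted mice, and 17 rose and 7 fell in control mice. Without replicates 9 and 15, Ccl3 and Cxcl12 lost their calls in control mice and Ccl6 was called lower. The other calls of members in control mice stayed. Of all tested genes 27.7% then rose and 29.9% fell in control mice.

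Markers of other cell types also differed between the tissues. Fibroblast and matrix markers (14 genes) had array means of 8.43 to 9.93 in tumours and 6.29 to 6.61 in epithelial cells. Endothelial markers (10 genes) ranged over 7.30 to 7.86 and 5.39 to 5.71, macrophage and dendritic cell markers (18 genes) over 6.51 to 7.65 and 5.97 to 6.25, and neutrophil markers (15 genes) over 5.26 to 6.70 and 4.90 to 5.22. In Stat3-deleted mice 11 of 14 fibroblast, 10 of 10 endothelial, 9 of 18 macrophage and 3 of 14 tested neutrophil markers rose in tumours. In control mice the counts were 12, 10, 12 and 9. Of all tested genes 30.3% rose in Stat3-deleted and 30.4% in control mice, so the neutrophil count in Stat3-deleted mice was below the background share. The part of these cells in the chemokine differences was not tested, and in such bulk samples fewer cells of a type and less RNA per cell cannot be told apart.

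**Figure D1:**
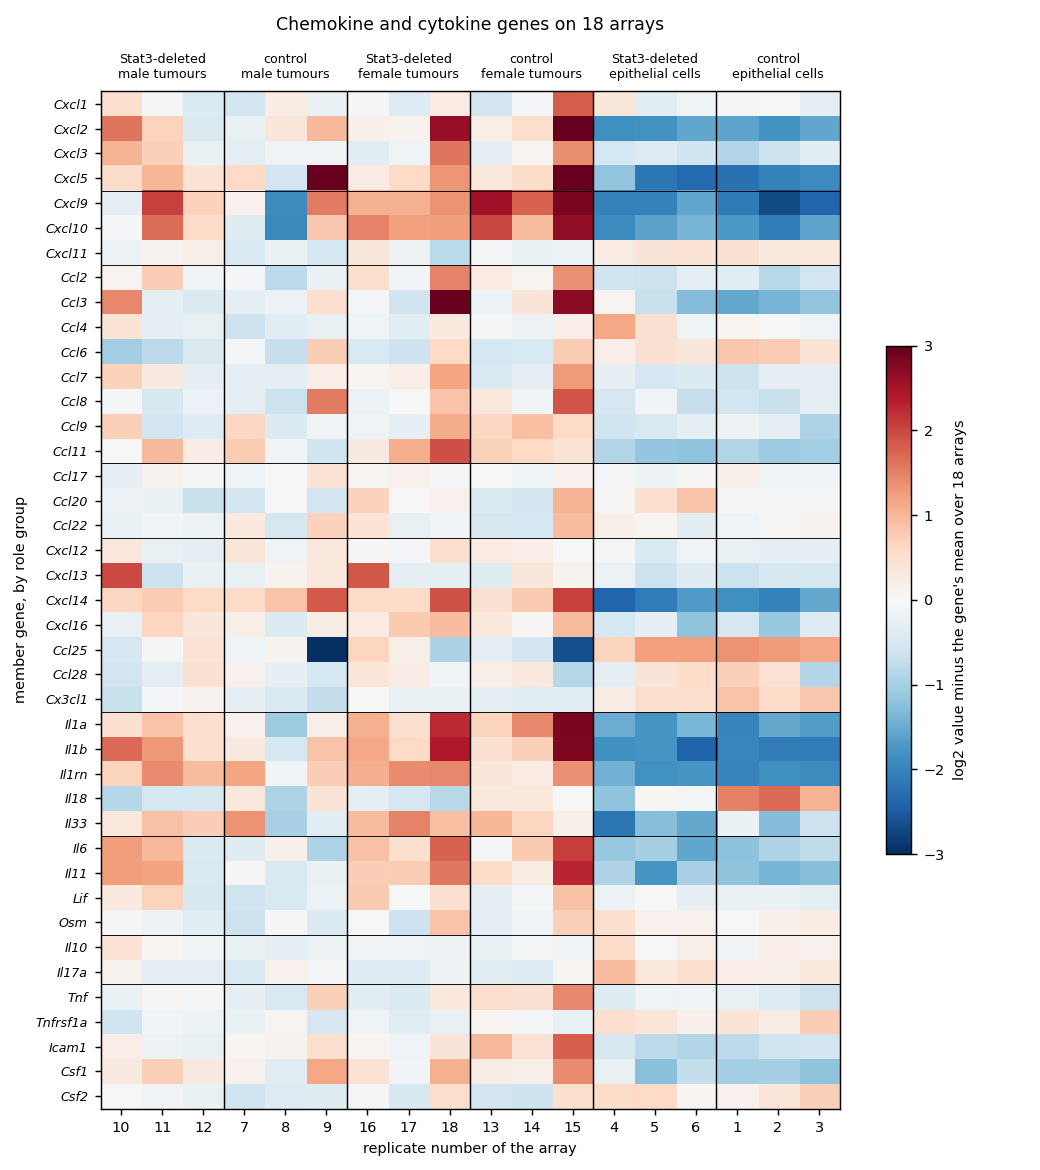
Log2 value of each of the 41 represented members (rows, ordered by role) on each of the 18 arrays (columns, grouped), minus the member's mean over all arrays. Colours end at 3 in either direction. In rows such as Il1b, Il1rn, Cxcl5 and Cxcl14 the 6 epithelial columns are blue and most of the 12 tumour columns red. Other inflammatory rows are mixed, with blue tumour cells in Ccl3 and Cxcl3 and in replicate 8 for Cxcl9 and Cxcl10. Replicates 15 and 18 hold many of the darkest red cells.

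Among the neutrophil attractants, Cxcl2 separated the tissues on every array. It stood at 7.97, 7.04 and 5.93 in Stat3-deleted and 6.15, 6.73 and 7.34 in control male tumours, and 6.51, 6.46 and 8.98 in Stat3-deleted and 6.58, 6.90 and 9.95 in control female tumours. In epithelial cells it was 4.53, 4.56 and 4.82 in Stat3-deleted and 4.79, 4.57 and 4.82 in control epithelial cells. The tumour values span a wide range, and replicates 15 and 18, 1 of each genotype, are the highest. The difference was 2.51 ± 0.66 (SE) in Stat3-deleted and 2.54 ± 0.66 (SE) in control mice (limma adjusted p 0.0035 and 0.00349), or 1.86 in control mice without replicates 9 and 15.

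Cxcl5, which also acts through Cxcr2, stood at 7.36, 7.80 and 7.21 in Stat3-deleted and 7.40, 6.22 and 9.98 in control male tumours, and 7.05, 7.41 and 8.12 in Stat3-deleted and 7.13, 7.36 and 10.45 in control female tumours. Its epithelial values were 5.63, 4.65 and 4.47 in Stat3-deleted and 4.58, 4.78 and 4.90 in control epithelial cells. Tumours and epithelial cells did not overlap, and replicates 9 and 15 were the highest tumours. The difference was 2.58 in Stat3-deleted mice (5.97-fold, adjusted p 0.0045) and 3.34 in control mice (10.1-fold, 0.000815), and 2.28 in control mice without replicates 9 and 15.

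Cxcl1, the close relative of Cxcl2, behaved otherwise on these arrays. It was 8.11, 7.61 and 7.22 in Stat3-deleted and 7.08, 7.87 and 7.45 in control male tumours, and 7.60, 7.25 and 7.90 in Stat3-deleted and 7.08, 7.57 and 9.47 in control female tumours. The epithelial cells held 7.98, 7.32 and 7.52 in Stat3-deleted and 7.59, 7.63 and 7.34 in control epithelial cells. The tissues overlapped in both genotypes, and the differences of 0.01 and 0.24 in Stat3-deleted and control mice did not pass (adjusted p 0.985 and 0.592). Cxcl3 ranged over 5.87 to 7.80 in tumours and 5.32 to 5.84 in epithelial cells, and rose in Stat3-deleted mice (0.95, 0.041), a call lost without any 1 of replicates 4, 5, 6, 10, 11 or 18 and with male tumours only. In control mice its difference was 0.73 (0.11). Whether probes of these close relatives respond to each other's RNA was not tested.

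Of the interferon-induced attractants, Cxcl9 stood at 7.72, 10.04 and 8.69 in Stat3-deleted and 8.11, 6.08 and 9.55 in control male tumours, and 9.07, 9.05 and 9.35 in Stat3-deleted and 10.51, 9.77 and 10.81 in control female tumours. Epithelial values were 5.96, 5.96 and 6.43 in Stat3-deleted and 5.87, 5.31 and 5.62 in control epithelial cells. Control male replicate 8 was the only tumour within the epithelial range, and the control females were the highest group. The tumour values were higher by 2.87 ± 0.55 (SE) in Stat3-deleted and 3.54 ± 0.55 (SE) in control mice (adjusted p 0.000415 and 7.00e-05). 

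Cxcl10 followed the same order, with 7.91, 9.61 and 8.51 in Stat3-deleted and 7.58, 6.02 and 8.75 in control male tumours, and 9.42, 9.17 and 9.19 in Stat3-deleted and 9.96, 8.90 and 10.61 in control female tumours. It was 6.03, 6.34 and 6.56 in Stat3-deleted and 6.22, 5.85 and 6.37 in control epithelial cells. Replicate 8 again lay among the epithelial cells. The tumour excess was 2.66 in Stat3-deleted (6.32-fold, adjusted p 0.000236) and 2.49 in control mice (5.6-fold, 0.000372), where the call ended with male tumours only (1.30, 0.0552). Cxcl11, the third ligand of Cxcr3, ran the other way, at 5.23 to 6.39 in tumours and 6.30 to 6.51 in epithelial cells. It fell by 0.43 in Stat3-deleted and by 0.62 in control mice (adjusted p 0.0441 and 0.00734). Leaving out single arrays ended the call in Stat3-deleted mice in 13 of 18 cases.

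**Figure D2:**
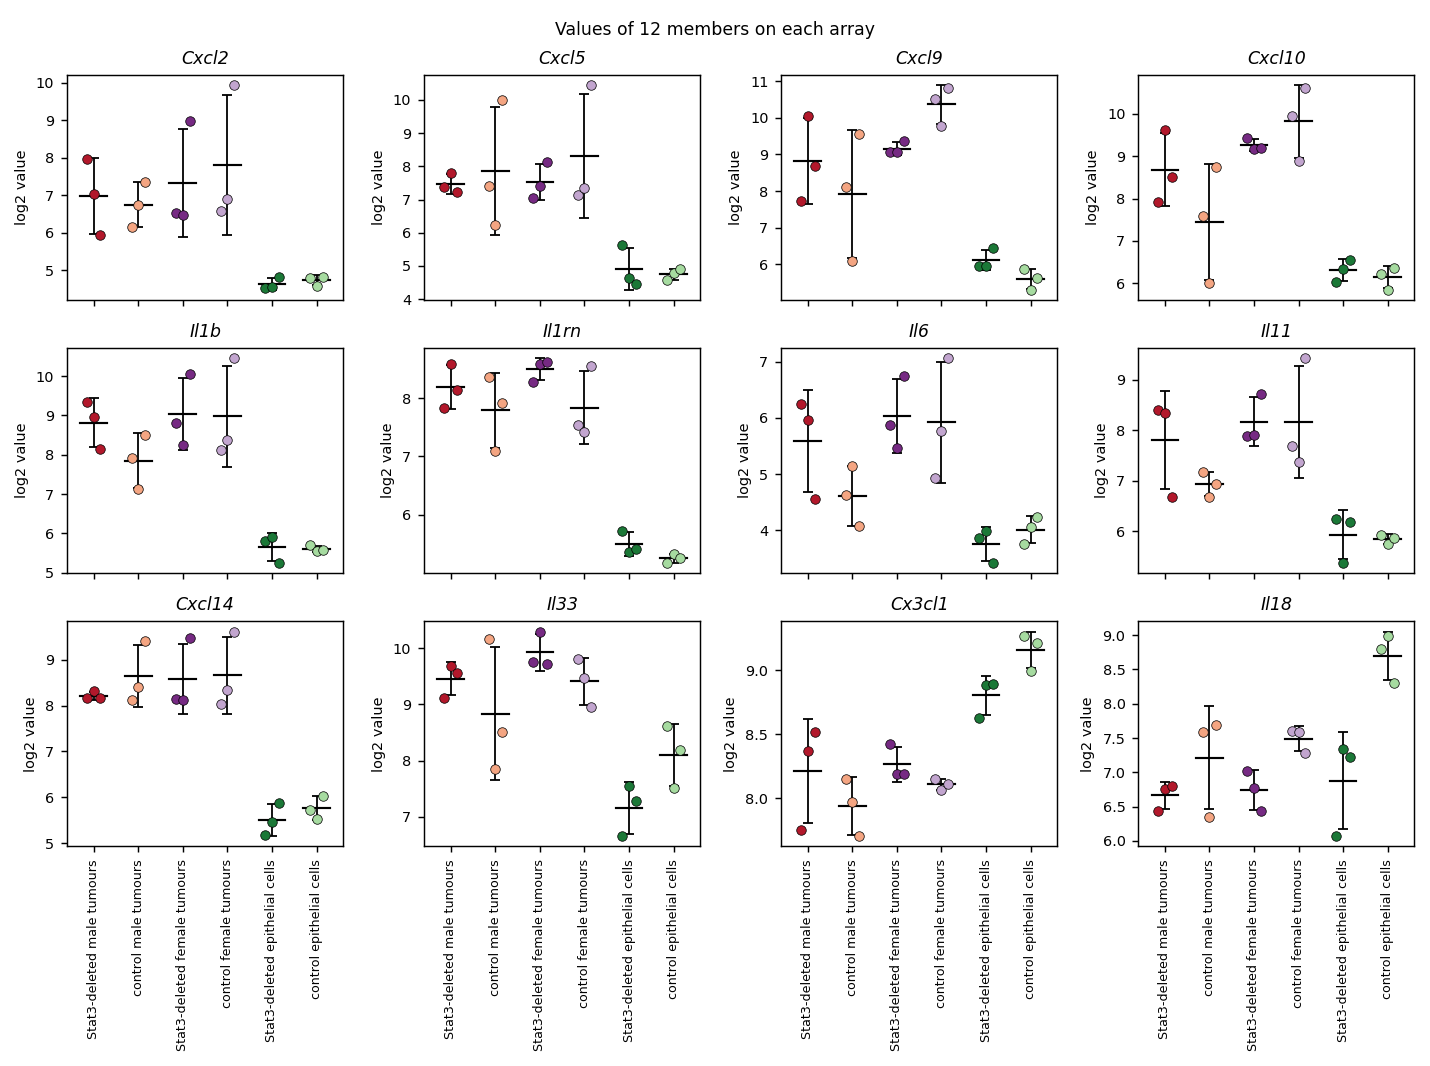
Log2 value of 12 members on each array, by group; points are arrays, the long bar is the mean and the error bar the SD (n = 3). Cxcl2, Cxcl5, Il1b, Il1rn, Il11 and Cxcl14 show tumours above epithelial cells on every array, whereas Cx3cl1 shows the reverse and Il18 is highest in control epithelial cells.

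Among CC chemokines, Ccl11 (eotaxin), which attracts eosinophils, stood at 7.04, 7.99 and 7.26 in Stat3-deleted and 7.80, 6.91 and 6.43 in control male tumours, and 7.30, 8.11 and 8.96 in Stat3-deleted and 7.73, 7.64 and 7.44 in control female tumours. Epithelial values were 6.16, 5.87 and 5.83 in Stat3-deleted and 6.15, 5.93 and 6.01 in control epithelial cells. All tumours exceeded all epithelial arrays, by 1.82 in Stat3-deleted and 1.29 in control mice (adjusted p 0.000183 and 0.00226). The monocyte attractant Ccl2 was 6.31, 6.97 and 6.14 in Stat3-deleted and 6.20, 5.45 and 6.03 in control male tumours, and 6.70, 6.15 and 7.72 in Stat3-deleted and 6.48, 6.28 and 7.59 in control female tumours. It was 5.64, 5.61 and 5.94 in Stat3-deleted and 5.88, 5.40 and 5.66 in control epithelial cells. It rose in Stat3-deleted mice (0.94, 0.0174), where the tissues did not overlap, but not without replicate 4 or 5 or with male tumours only, and its difference in control mice was 0.69 (0.0685), which passed in 6 of 26 alternatives.

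The macrophage chemokines Ccl3 and Ccl4 were called in opposite directions, but not in the same genotype. Ccl3 ranged over 6.05 to 9.62 in tumours and 5.11 to 6.74 in epithelial cells, with a difference of 1.14 in Stat3-deleted mice (0.159) and of 1.87 in control mice, where it rose (0.0272) but not without replicate 1, 2, 3 or 15, or with male tumours only. Without replicates 9 and 15 the control value was 1.32 (0.092). Ccl4 was 5.09 to 6.13 in tumours and 5.59 to 6.87 in epithelial cells, where replicate 4 was highest, and it fell in Stat3-deleted mice (-0.54, 0.0454), a call lost in 15 of 26 alternatives, without replicate 4 among them. Ccl9 rose in control mice (0.83, 0.0325) and Ccl6 fell in Stat3-deleted mice (-0.79, 0.0427), and each call was lost when single arrays were left out. In control mice the Ccl6 difference was -0.69 (0.0731). It was -1.08 and passed without replicates 9 and 15 (0.00275), and it also passed without replicate 9, 15 or 18, with array weights and with quantile normalisation. Ccl7 (5.82 to 7.56 in tumours and 5.64 to 6.05 in epithelial cells) did not pass in either genotype, nor did Ccl8, which stood below the 25th percentile of its array in all 6 epithelial arrays and in 2 tumours. Ccl7 in Stat3-deleted mice (0.75, 0.0546) passed in 8 of 26 alternatives, and Ccl8 in control mice (0.97, 0.0587) in 5.

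Chemokines of dendritic and T cell traffic gave no call in the main fit. Ccl20, which draws Ccr6-bearing cells, ranged over 5.79 to 7.48 in tumours and 6.38 to 7.30 in epithelial cells. Ccl17 and Ccl22, ligands of Ccr4, were below the array median on all 18 arrays. None of the 3 passed in either genotype in that fit. In Stat3-deleted mice Ccl20 was called lower in some alternatives (limma). These were array weights (-0.82, adjusted p 0.0011), quantile normalisation (-0.65, 0.0479), and leaving out replicate 15 (-0.50, 0.0326) or replicates 9 and 15 (-0.50, 0.0324).

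Among tissue-resident and mucosal chemokines, Cxcl14, made by epithelium and fibroblasts, had nearly the same difference in both genotypes. It was 8.17, 8.32 and 8.17 in Stat3-deleted and 8.13, 8.41 and 9.41 in control male tumours, and 8.14, 8.13 and 9.47 in Stat3-deleted and 8.03, 8.35 and 9.62 in control female tumours. Epithelial cells had 5.17, 5.46 and 5.87 in Stat3-deleted and 5.73, 5.52 and 6.04 in control epithelial cells. All 12 tumours lay above all 6 epithelial arrays. The differences were 2.90 ± 0.36 (SE) in Stat3-deleted and 2.89 ± 0.36 (SE) in control mice (7.45-fold and 7.43-fold, adjusted p 1.40e-05 and 8.37e-06).

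Cx3cl1 (fractalkine), a membrane-bound ligand of Cx3cr1, was lower in tumours, at 7.75, 8.37 and 8.52 in Stat3-deleted and 8.15, 7.97 and 7.70 in control male tumours, and 8.42, 8.19 and 8.19 in Stat3-deleted and 8.15, 8.06 and 8.11 in control female tumours. In epithelial cells it was 8.63, 8.88 and 8.89 in Stat3-deleted and 9.26, 8.99 and 9.21 in control epithelial cells. The tissues did not overlap in either genotype, and it fell by 0.56 in Stat3-deleted and by 1.13 in control mice (adjusted p 0.0055 and 2.62e-05). Ccl25, the small intestinal ligand of Ccr9, is described here on every array by a choice made after its values were seen. It stood at 10.16, 10.62 and 11.08 in Stat3-deleted and 10.55, 10.77 and 7.53 in control male tumours, and 11.32, 10.83 and 9.71 in Stat3-deleted and 10.39, 10.09 and 8.04 in control female tumours. The epithelial level was 11.34, 11.90 and 11.90 in Stat3-deleted and 12.02, 11.93 and 11.82 in control epithelial cells. Replicates 9 and 15 held the lowest values. Ccl25 fell by 2.36 in control tumours (adjusted p 0.00345), or by 1.47 without that pair (0.00104), and its difference in Stat3-deleted mice was -1.09 (0.123), without overlap. The Stat3-deleted difference passed when that pair was left out of the shared spread (0.00331), without replicate 9 (0.0316), with only the compared groups (0.012) and with array weights (0.0301).

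Cxcl16, a transmembrane ligand of Cxcr6, rose by 1.11 in Stat3-deleted and by 0.89 in control mice (adjusted p 0.00211 and 0.00916), and the control call ended without replicate 2 (0.071) or with male tumours only. Cxcl12, the ligand of Cxcr4, rose in control mice (0.41, 0.0374), and lost the call in 9 of 26 alternatives. Ccl28, which attracts IgA plasma cells, ranged over 5.99 to 7.31 in tumours and 5.96 to 7.57 in epithelial cells and did not pass. Neither did Cxcl13, the B cell attractant, whose 2 highest values were those of Stat3-deleted tumour replicates 10 and 16, at 8.06 and 7.94, against at most 6.42 on all other arrays. The mean of 11 B and plasma cell markers was 7.54 and 7.18 in replicates 16 and 10, the 2 highest of the series. Its part in the Cxcl13 values was not tested.

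**Figure D3:**
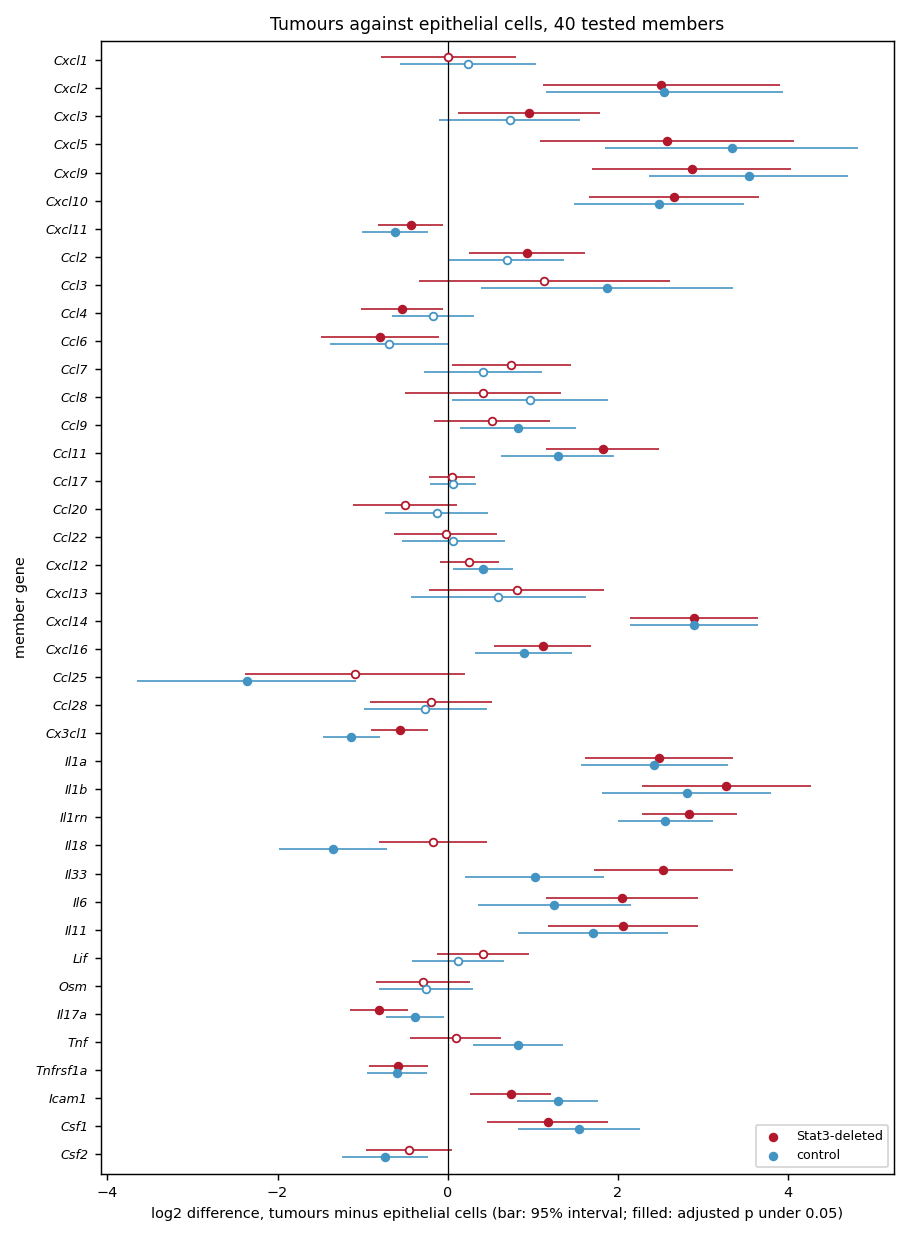
Log2 difference of each of the 40 tested members, tumours minus epithelial cells, in Stat3-deleted and in control mice, with its 95% interval. Filled points passed at an adjusted p under 0.05. Il1rn, Il1b and Cxcl14 lie far to the right in both genotypes, and Cx3cl1 and Tnfrsf1a to the left.

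Of the 5 IL-1 family members, 4 rose in tumours of both genotypes and Il18 did not. Il1b, which encodes IL-1 beta, was 9.35, 8.96 and 8.14 in Stat3-deleted and 7.92, 7.13 and 8.51 in control male tumours, and 8.81, 8.26 and 10.05 in Stat3-deleted and 8.12, 8.36 and 10.46 in control female tumours. In epithelial cells it was 5.81, 5.90 and 5.25 in Stat3-deleted and 5.70, 5.56 and 5.57 in control epithelial cells. All 12 tumours exceeded all 6 epithelial arrays, by 3.27 ± 0.47 (SE) in Stat3-deleted mice, 9.68-fold, and 2.81 ± 0.47 (SE) in control mice, 7-fold (adjusted p 4.92e-05 and 0.000128).

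Il1rn encodes the antagonist that occupies the IL-1 receptor without signalling. It stood at 7.84, 8.58 and 8.13 in Stat3-deleted and 8.36, 7.09 and 7.92 in control male tumours, and 8.28, 8.59 and 8.62 in Stat3-deleted and 7.53, 7.42 and 8.56 in control female tumours. Epithelial arrays had 5.73, 5.36 and 5.41 in Stat3-deleted and 5.18, 5.33 and 5.26 in control epithelial cells. Its tumour excess of 2.84 ± 0.27 (SE) in Stat3-deleted and 2.56 ± 0.27 (SE) in control mice had the smallest adjusted p of all members in both genotypes (1.10e-06 and 1.75e-06). Agonist and antagonist were thus higher in the same arrays, the tumours.

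Il1a, the membrane-associated agonist, was 6.34, 6.72 and 6.36 in Stat3-deleted and 5.99, 4.79 and 6.02 in control male tumours, and 6.92, 6.34 and 8.09 in Stat3-deleted and 6.53, 7.29 and 8.68 in control female tumours. It was 4.36, 4.08 and 4.49 in Stat3-deleted and 3.86, 4.31 and 4.19 in control epithelial cells. The epithelial values all lie below their arrays' 25th percentile. Il1a was tested only because of its tumour values, so a difference was built into its selection and its size is uncertain. The difference was 2.48 in Stat3-deleted and 2.43 in control mice (adjusted p 0.000133 and 0.000133).

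Il33, an alarmin of epithelial and stromal nuclei, stood at 9.12, 9.68 and 9.56 in Stat3-deleted and 10.16, 7.85 and 8.50 in control male tumours, and 9.76, 10.30 and 9.72 in Stat3-deleted and 9.80, 9.47 and 8.96 in control female tumours. In epithelial cells it was 6.65, 7.54 and 7.28 in Stat3-deleted and 8.61, 7.51 and 8.18 in control epithelial cells. It rose by 2.53 ± 0.39 (SE) in Stat3-deleted mice, without overlap (adjusted p 7.80e-05), and by 1.02 ± 0.39 (SE) in control mice (0.0291), where replicates 8 and 9 lay among the epithelial arrays. The control call ended without replicate 2, 3 or 13, with quantile normalisation, with only the control groups in the fit and with male tumours only. The difference between the genotypes of 1.51 did not pass (0.499).

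Il18, which epithelial cells store as a precursor and which is shown on every array by a choice made after its values were seen, was 6.43, 6.76 and 6.80 in Stat3-deleted and 7.59, 6.35 and 7.70 in control male tumours, and 7.01, 6.77 and 6.44 in Stat3-deleted and 7.60, 7.59 and 7.28 in control female tumours. The epithelial cells had 6.07, 7.35 and 7.22 in Stat3-deleted and 8.80, 8.99 and 8.30 in control epithelial cells. Control epithelial cells were higher than every other array. Il18 fell in control tumours by 1.35 (adjusted p 0.00123), whereas in Stat3-deleted mice the difference was -0.18 (0.613).

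In the IL-6 family, Il11, known from tumour fibroblasts, was 8.39, 8.34 and 6.68 in Stat3-deleted and 7.17, 6.68 and 6.94 in control male tumours, and 7.88, 7.91 and 8.73 in Stat3-deleted and 7.69, 7.37 and 9.43 in control female tumours. Epithelial values were 6.23, 5.37 and 6.17 in Stat3-deleted and 5.93, 5.74 and 5.85 in control epithelial cells. Tumours and epithelial cells did not overlap. The difference was 2.06 in Stat3-deleted and 1.71 in control mice (adjusted p 0.000579 and 0.00236), and that in control mice did not pass with male tumours only (0.0661).

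Il6 itself was dimmer, at 6.24, 5.96 and 4.55 in Stat3-deleted and 4.62, 5.14 and 4.07 in control male tumours, and 5.87, 5.46 and 6.75 in Stat3-deleted and 4.93, 5.76 and 7.06 in control female tumours. The epithelial values of 3.86, 3.99 and 3.42 in Stat3-deleted and 3.75, 4.05 and 4.23 in control epithelial cells were below the 25th percentile of every array. Replicates 15, 18 and 10 were the highest. It rose by 2.05 in Stat3-deleted mice, without overlap, and by 1.25 in control mice, with overlap (adjusted p 0.000677 and 0.0166). As Il6 was tested only because of its tumour values, this is no independent support for the difference. The control call was lost without replicate 1 or with male tumours only (0.306).

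Lif ranged over 5.65 to 7.14 in tumours and 5.98 to 6.27 in epithelial cells, and Osm, the ligand of Osmr made by myeloid cells, over 4.70 to 6.18 and 5.31 to 5.80. Neither passed in either genotype in the main fit, and Lif passed in Stat3-deleted mice without replicate 12 (0.58, adjusted p 0.0403). Il17a, the T cell cytokine that induces neutrophil attractants, was 5.56, 5.19 and 5.20 in Stat3-deleted and 4.999, 5.59 and 5.42 in control male tumours, and 5.08, 5.07 and 5.31 in Stat3-deleted and 5.14, 5.09 and 5.53 in control female tumours. In epithelial cells it was 6.40, 5.78 and 5.95 in Stat3-deleted and 5.67, 5.62 and 5.76 in control epithelial cells. It stood below the array median on all arrays but replicate 4. It fell in tumours by 0.81 in Stat3-deleted and by 0.39 in control mice (adjusted p 0.000537 and 0.0432), and the control call was lost in 11 of 26 alternatives. Over the same arrays the 19 T and NK cell markers had means of 5.41 to 6.04 in tumours and 6.19 to 7.80 in epithelial cells, whose part in the fall was not tested. Il10 ranged over 3.72 to 4.55 and exceeded the 25th percentile on 1 array.

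Tnf was 6.78, 7.02 and 6.94 in Stat3-deleted and 6.74, 6.52 and 7.69 in control male tumours, and 6.66, 6.58 and 7.31 in Stat3-deleted and 7.52, 7.45 and 8.43 in control female tumours. In epithelial cells it stood at 6.62, 6.84 and 6.89 in Stat3-deleted and 6.75, 6.60 and 6.35 in control epithelial cells. It rose in control mice (0.83, adjusted p 0.0096), with 0.49 (0.0244) without replicates 9 and 15 and 0.42 (0.233) with male tumours only, and leaving out replicate 3 also ended the call. Its difference in Stat3-deleted mice was 0.10 (0.747).

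Icam1, the adhesion molecule that holds leukocytes to endothelium and a known NF-kB target, was 7.71, 7.36 and 7.29 in Stat3-deleted and 7.57, 7.63 and 7.996 in control male tumours, and 7.60, 7.37 and 7.90 in Stat3-deleted and 8.49, 7.95 and 9.31 in control female tumours. Epithelial arrays had 7.03, 6.73 and 6.64 in Stat3-deleted and 6.72, 6.92 and 6.94 in control epithelial cells. Every tumour was above every epithelial array, by 0.74 ± 0.23 (SE) in Stat3-deleted and 1.30 ± 0.23 (SE) in control mice (adjusted p 0.00891 and 0.000174). With quantile normalisation the difference in Stat3-deleted mice did not pass (0.0563).

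Csf1, the growth factor of macrophages, stood at 6.77, 7.22 and 6.76 in Stat3-deleted and 6.62, 6.18 and 7.65 in control male tumours, and 6.92, 6.41 and 7.56 in Stat3-deleted and 6.71, 6.67 and 7.92 in control female tumours. It was 6.26, 5.25 and 5.78 in Stat3-deleted and 5.47, 5.49 and 5.29 in control epithelial cells. Within each genotype, tumours and epithelial cells did not overlap, and the differences were 1.18 and 1.54 in Stat3-deleted and control mice (adjusted p 0.0061 and 0.00107). Csf2 was below the array median on all arrays and fell in control mice (-0.74, 0.0129), a call lost without replicate 3 and with quantile normalisation. It exceeded the 25th percentile in all 6 epithelial arrays but in only 5 tumours, so the size of its fall is limited by background. Tnfrsf1a, the ubiquitous TNF receptor, fell by 0.58 and by 0.60 in Stat3-deleted and control mice (adjusted p 0.00555 and 0.00517).

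No member passed for Stat3 deletion in any tissue. In male tumours, female tumours and epithelial cells 0 of 40 members passed in either direction (limma), where of all tested genes 0.116%, 0.0173% and 0.00% were called higher and 0.116%, 0.0866% and 0.0231% lower. At an unadjusted p under 0.05 there were 1, 4 and 1 of 40 members, against 7.52%, 5.03% and 6.8% of all tested genes. In tumours of both sexes together 0 passed, against 0.289% higher and 0.422% lower of all tested genes, and 5 of 40 members had an unadjusted p under 0.05, near the 12% of all tested genes. This last comparison uses the same arrays as the sex-specific ones. The intervals of single members are wide, as the plot of deletion differences shows, so moderate changes in either direction were not detectable with 3 arrays a group.

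**Figure D4:**
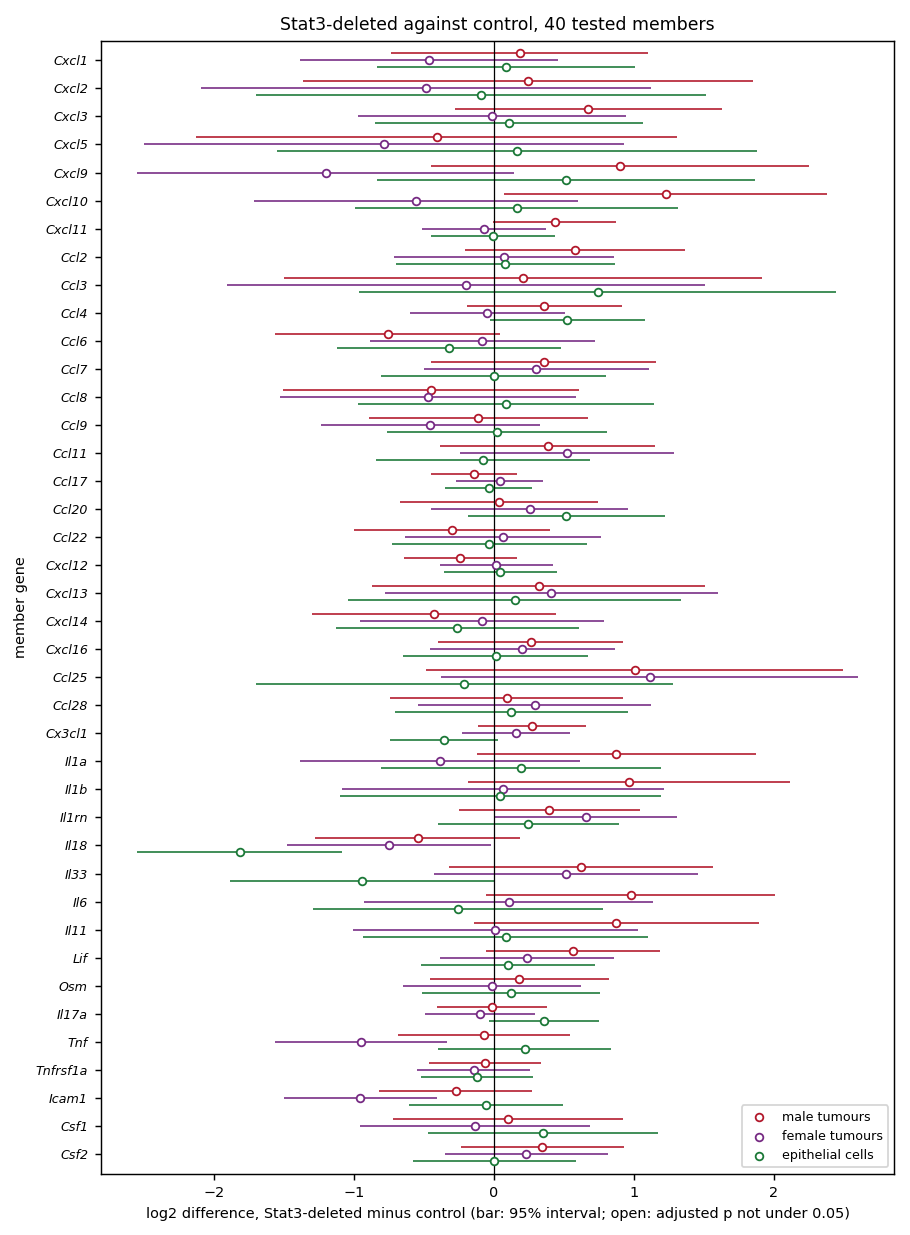
Log2 difference of each of the 40 tested members, Stat3-deleted minus control, in male tumours, female tumours and epithelial cells, with its 95% interval. All points are open, since none passed at an adjusted p under 0.05. Il18 in epithelial cells lies farthest to the left.

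Over all deletion comparisons the member nearest to the threshold was Icam1 in tumours of both sexes (limma adjusted p 0.15). Within male tumours, female tumours or epithelial cells alone, the nearest was Il18 in epithelial cells. Its group mean was 6.88 ± 0.70 in Stat3-deleted and 8.70 ± 0.35 in control epithelial cells (SD, n = 3 each). All Stat3-deleted arrays lay below all control arrays, and replicate 4 was the lowest. The difference was -1.82 ± 0.35 (SE), 3.53-fold lower, with a 95% interval of -2.55 to -1.09 and an adjusted p of 0.166 over all tested genes. It passed with array weights (0.000231) and when replicate 8, a tumour that enters the fit only through the shared spread, was left out (0.0359). In tumours the Il18 difference was -0.75 in females, without overlap, and -0.55 in males, with overlap (adjusted p 0.975 and 0.827), and neither passed.

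In female tumours the smallest p-values belonged to Icam1 and Tnf. Icam1 averaged 7.63 ± 0.27 in Stat3-deleted and 8.58 ± 0.69 in control female tumours (SD, n = 3 each), and the arrays did not overlap. The difference was -0.96 with an interval of -1.51 to -0.41 (adjusted p 0.488), and -0.59 without replicates 9 and 15. Tnf averaged 6.85 ± 0.40 and 7.80 ± 0.55, again without overlap, a difference of -0.95 (0.605), or -0.64 without that pair. In male tumours, whose arrays overlapped for both genes, the differences were -0.28 for Icam1 and -0.07 for Tnf. Over both sexes Icam1 differed by -0.62 (0.15), and it passed with array weights (0.0395) and without replicate 14 (0.0465).

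The ligands of the Stat3 pathway did not pass in any tissue. For Il6 the difference was 0.98 for male tumours, 0.11 for female tumours and -0.26 for epithelial cells, with 95% intervals of -0.06 to 2.01, -0.93 to 1.14 and -1.29 to 0.78. Il11 differed by 0.87, 0.01 and 0.08 in the same order, and Lif by 0.56, 0.24 and 0.10. In male tumours the values of these 3 genes in replicates 10 and 11 exceeded all control male arrays, while replicate 12 stood within their range.

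Cxcl10 had the smallest p of the members in male tumours, with a difference of 1.23 (adjusted p 0.633) and overlapping arrays. Control replicate 8 was the lowest array, and without replicate 8 the difference was 0.51. In female tumours the difference was -0.56. Cxcl9 differed by 0.90 in males, or -0.01 without replicate 8, and by -1.20 in females. The male minus female difference of the deletion effect was 2.11 for Cxcl9 and 1.79 for Cxcl10, and did not pass (adjusted p 1 for each). Without replicate 8 these values were 1.19 and 1.07. In that test 0 of 40 members passed, as did 0.00% of all tested genes, and 3 members (7.5%) had an unadjusted p under 0.05, against 0.936% of all tested genes. For the tumour effect minus the epithelial effect, 0 of 40 members passed, against 0.00578% higher and 0.00578% lower of all tested genes, with 3 members (7.5%) at an unadjusted p under 0.05, against 9.38% of all tested genes, namely Il33 (1.51), Il18 (1.17) and Cx3cl1 (0.57).

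Few members had arrays that did not overlap between Stat3-deleted and control groups. In male tumours 3 were higher (Cxcl11, Il1a and Csf2) and 0 lower, where 2.06% and 8.03% of all tested genes had no overlap. As a share, the higher count lay above that background and the lower count below it. Csf2 was near background, with only 5 tumours of the series over the 25th percentile. In female tumours 1 was higher (Cx3cl1) and 4 were lower (Cxcl9, Il18, Tnf and Icam1), where the background was 5.20% and 10.4%. In epithelial cells 4 were higher (Cxcl9, Ccl20, Il1rn and Il17a) and 2 lower (Cx3cl1 and Il18), where it was 6.30% and 7.81%. Over both sexes of tumours there were 0, where it was 0.219% and 1.14%.

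Most members had lower means in male than in female tumours, but no member passed. Averaged over genotypes, 37 of 40 members had a lower mean in males, with a median difference of -0.27 against -0.02 for all tested genes, and 0 were called, where 0.0173% and 0.00578% of all tested genes were called higher and lower. At an unadjusted p under 0.05 there were 9 members, 22.5% of them, against 6.13% of all tested genes. For 0 members did the sexes not overlap, where 0.214% and 0.0635% of all tested genes did not. Cxcl10 differed by -1.48, Il1a by -1.27 and Cxcl9 by -1.40 (adjusted p 0.749 for each). Control male replicate 8 held the lowest tumour value of 15 of the 41 represented members, and control female replicate 15 the highest of 20. Members measured on the same arrays are not independent, and the share of all tested genes with a lower male mean is not given here. Leaving out single arrays moved the Cxcl10 difference between -1.80 and -1.12, that of Cxcl9 between -1.80 and -0.94 and that of Il1a between -1.51 and -0.98.

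Within the tumours, a few arrays of either genotype were high for many members. Control female replicate 15 was the highest tumour for 20 members, and Stat3-deleted female replicate 18 for 9. For 10 members (Cxcl1, Cxcl2, Cxcl3, Ccl3, Ccl4, Ccl7, Il1b, Il6, Il11 and Csf2) the 3 highest tumours were Stat3-deleted replicates 10 and 18 and control replicate 15. Ccl3 reached 8.09 and 9.62 in replicates 10 and 18 and 9.37 in replicate 15, against at most 7.16 in the other 9 tumours. These arrays were picked by their values, so this is a description without a test.

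Neutrophil markers averaged 5.64, 6.39 and 6.70 in replicates 10, 18 and 15, and 5.26 to 6.14 in the other tumours. Macrophage and dendritic cell markers averaged 6.59, 7.52 and 7.65 in the same 3 arrays, and 6.51 to 7.36 in the others. The neutrophil protein gene S100a9 was 7.64, 7.92 and 8.53, the 3 highest of the tumours, whereas Ly6g, a neutrophil surface protein, was 4.46, 5.75 and 9.29. Ly6g was lower in Stat3-deleted than in control male tumours (-3.73, adjusted p 0.0128), the only neutrophil marker to pass there. Both genes were picked after their values were seen. Replicates 18 and 15 thus had high markers of both myeloid lists, and replicate 10 did not. Epithelial markers averaged 11.11, 11.22 and 10.78 in replicates 10, 18 and 15, which with replicate 9 (10.78) were the lowest tumours, the others reaching 11.38 to 11.60. Fibroblast and matrix markers averaged 8.96, 9.93 and 9.25 in the same 3 arrays, and 8.43 to 9.25 in the other tumours. The part of these cells in the pattern was not tested.

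**Figure D5:**
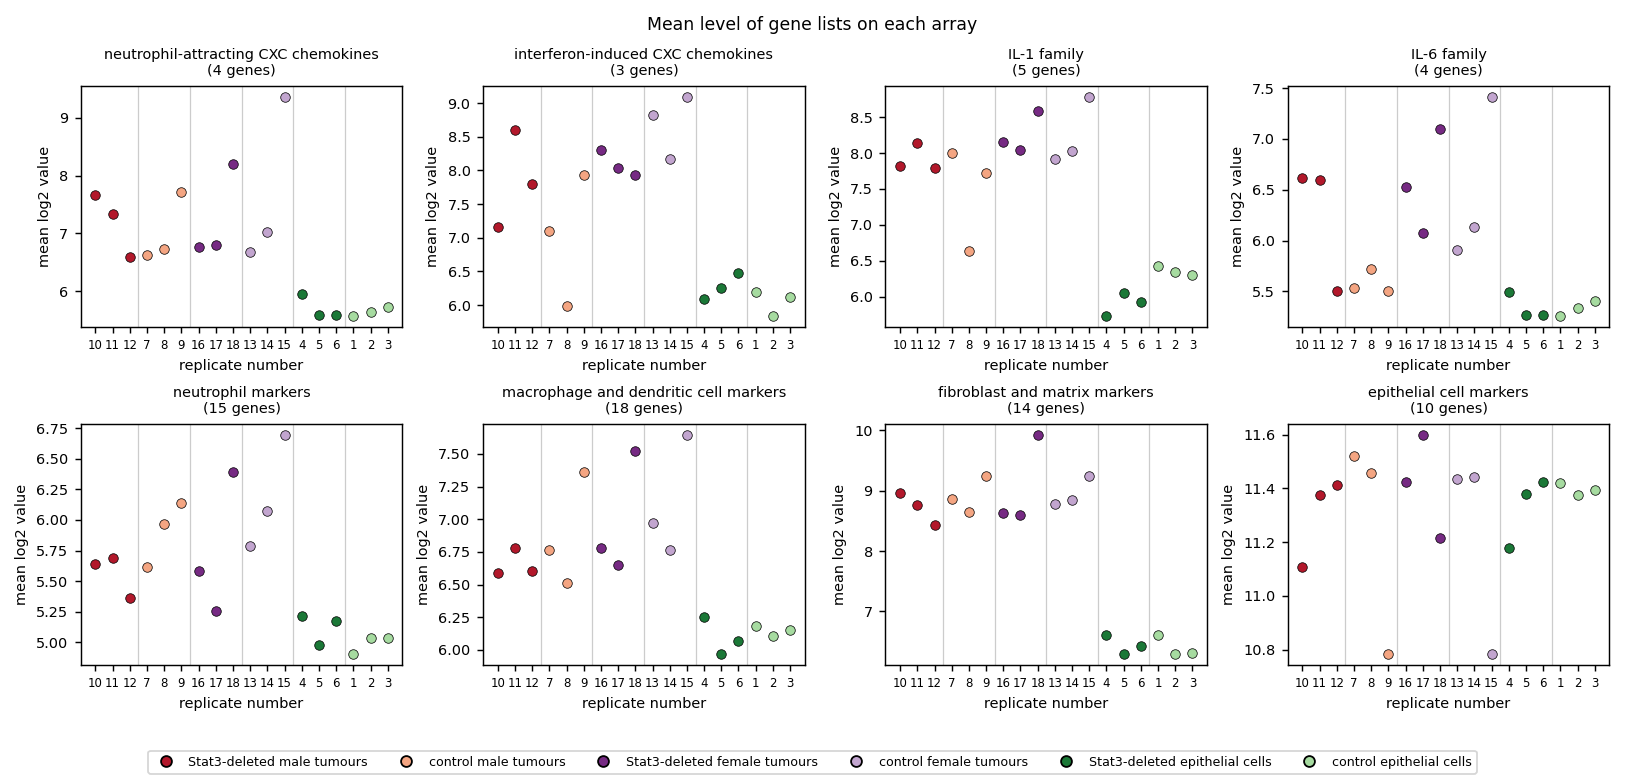
Mean log2 value of 4 role groups of members (top) and 4 lists of cell type markers (bottom) on each array, grouped and coloured by group. Each point is 1 array. Replicates 15 and 18 are highest for the neutrophil attractants, the IL-1 and IL-6 families and the neutrophil and macrophage markers, and replicate 8 has the lowest interferon-induced chemokines and IL-1 family of the tumours.

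Genes that act with the members were also measured. As background, 30.3% of all tested genes rose and 36.2% fell in tumours of Stat3-deleted mice. In control mice 30.4% rose and 35.3% fell. Of 17 tested receptors of these cytokines, 7 rose and 1 fell in tumours of Stat3-deleted mice, and 9 rose and 3 fell in control mice. The receptors of the IL-6 family rose in both, Osmr by 2.53 and 2.52, Il6st by 2.51 and 1.87, and Lifr by 1.82 and 1.90 in Stat3-deleted and control mice (largest adjusted p 6.62e-05). Csf1r, the receptor of Csf1 on macrophages, rose by 2.47 and 2.51.

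Of 19 tested chemokine receptors, 2 rose and 8 fell in Stat3-deleted mice, against 30.3% and 36.2% of all tested genes. In control mice 3 rose and 3 fell, against 30.4% and 35.3%. Cxcr4 rose by 1.41 and 1.70, and the myeloid receptor Ccr1 by 1.44 and 1.64 (largest adjusted p 0.00135). Cxcr2, the receptor of Cxcl2 and Cxcl5, rose in control mice (1.74, 0.00258). Cxcr3, the receptor of Cxcl9 and Cxcl10, fell in Stat3-deleted mice (-0.81, 0.0013).

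Of 9 tested chemokines outside the list, 0 rose and 6 fell in Stat3-deleted mice, against 30.3% and 36.2% of all tested genes. In control mice 2 rose and 4 fell, against 30.4% and 35.3%. Ccl5, a chemokine of T and NK cells, fell in both (-2.68 and -1.32, adjusted p 3.30e-05 and 0.00536). The platelet chemokines Pf4 and Ppbp rose in control mice (1.29 and 1.32). Of 19 NF-kB pathway and feedback genes, 7 rose and 3 fell in Stat3-deleted mice, and 6 rose and 3 fell in control mice. The rises were near the background shares of 30.3% and 30.4%. Ptgs2 (cyclooxygenase), a known target, rose by 3.98 and 3.84, while Tnip1, a feedback inhibitor, fell by 1.12 and by 1.27 (largest adjusted p 6.70e-05). None of the 4 lists had a member that passed for Stat3 deletion in male tumours, female tumours or epithelial cells.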

How the data were processed

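RNA of 18 mouse samples was measured on Affymetrix whole-transcript arrays. The deposited log2 values, 1 column per array, were made by the authors with RMA, per the submitters' processing notes. RMA as usually run normalises arrays by quantiles. Its version, and whether all arrays went through 1 run, is not given in the sources used here. Values ranged from 1.33 to 14.6 over 35556 probe sets (array medians 5.88 to 6.07). Signal over background was not given, and the precision is limited by the number of arrays. Names came from the platform annotation, with 21789 probe sets having 1 symbol, 1621 several and 12146 being unlisted, and each of 19938 genes took its brightest probe set. Genes over the array's 25th percentile in at least 3 arrays were tested (17316). limma 3.58.1 in R 4.3.3 fitted a mean per group to all 18 arrays, with an intensity trend, two-sided tests and Benjamini-Hochberg adjustment over all tested genes in each of 9 comparisons. Differences are log2, as Stat3-deleted minus control, tumour minus epithelial, or male minus female. Members named on every array were those called with the 15 smallest p-values and 11 measured genes chosen for their roles. The script was tested on simulated data. Members, lists and the pair of arrays left out were chosen with earlier results of these data known. The alternatives were no filter, quantile normalisation, no trend, array weights, only the compared groups, the mean of probe sets, single arrays left out, replicates 9 and 15 left out, and male tumours only.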

Additional observations from a re-analysis of the deposited data

Results flagged for a closer look

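Cxcl9 and Cx3cl1 had differences of opposite sign with Stat3 deletion in female tumours and in epithelial cells, with no overlap between the arrays of the groups in either tissue. Cxcl9 differed by -1.20 in female tumours and by 0.52 in epithelial cells (log2, Stat3-deleted minus control, 3 arrays a group). Cx3cl1 differed by 0.16 in female tumours and by -0.36 in epithelial cells. The difference between these 2 tissues was not tested for either gene. In the test that uses tumours of both sexes, the tumour effect minus the epithelial effect was -0.67 for Cxcl9 (adjusted p 0.763) and 0.57 for Cx3cl1 (0.503), and neither passed. Groups of 3 arrays are too small for a check of single outlying arrays.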

How the results depend on the processing

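With male tumours only, 10 of 40 members rather than 19 rose in control tumours, where 25.9% of all tested genes rose. Array weights gave calls for Stat3 deletion where there had been 0: in epithelial cells 1 higher (Ccl20) and 1 lower (Il18), in female tumours 1 higher (Il1rn) and 3 lower (Icam1, Il18 and Tnf), in tumours of both sexes 2 lower (Icam1 and Il18), and for the tumour effect minus the epithelial effect 1 higher (Il18). With weights the calls among all tested genes also grew, to 564 higher and 570 lower in epithelial cells against 0 and 4, and to 272 and 473 in female tumours against 3 and 15. The weights were uneven, 4.87 for replicate 6 and 0.16 for replicate 8. Leaving out single arrays gave 15 to 19 members higher and 3 to 7 lower in tumours of Stat3-deleted mice, and 14 to 21 higher and 5 to 8 lower in control mice. It gave 0 to 1 lower for deletion in epithelial cells and 0 to 1 lower in tumours of both sexes. In the other deletion and sex comparisons the counts were 0 in each of these fits. Of the 23 calls in Stat3-deleted and 26 in control mice, 17 and 15 were kept in all alternatives and none changed sign. Quantile normalisation moved the median of all genes to -0.16 and -0.14 in the tumour comparisons of Stat3-deleted and control mice. No paired analysis was possible because the replicate numbers are unique over the series. Dim members such as Il6 and Il1a in epithelial cells are limited by background.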
